A study of Mus musculus with 2 samples.

Results

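Aminoacyl-tRNA synthetases attach each amino acid to its transfer RNA and so supply the ribosome with charged tRNA. Mammals use separate nuclear genes for most of the cytosolic and the mitochondrial enzymes, and the mitochondrial set, whose names end in 2, serves the few proteins translated inside the organelle. Several cytosolic synthetases are bound together in a multi-synthetase complex, and a number of them are known targets of ATF4, the transcription factor that raises amino acid supply and tRNA charging genes in the integrated stress response. Such genes are of interest here because the series title names endoplasmic reticulum stress, which can activate ATF4.

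The genes described were 35 synthetases chosen by name, out of 37146 genes in the files. They comprised 19 cytosolic and 16 mitochondrial enzymes, and all 35 were found in the deposited tables and were above 0 in both libraries. The NP library came from liver of CD-1 mice, an outbred strain, given TiO2 nanoparticles by mouth at 50 mg per kg body weight per day, after 30 min of ultrasound on the suspension. The Control library came from liver of CD-1 mice given an equal volume of PBS. The labels give no age, sex, length of treatment or number of mice per library. With 1 library per group there was no replicate check and no test, so each statement describes these 2 libraries and not the treatment.

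Levels are FPKM, fragments scaled to transcript length and library size, summed over all rows of a gene. The interval in parentheses after a level comes from the bounds in the files. It covers the estimate within a library and no spread between animals. The NP library was covered more deeply, with 2.92 reads per base for each unit of FPKM against 2.29 in Control. Summed coverage of a member had a median of 30.1 reads per base in NP and 22.9 in Control, and was lowest for Mars2 at 2.08 in NP and 1.30 in Control. Upper bounds lay a median of 13.2% above the member's value in NP and 13.7% in Control. All 6 hepatocyte markers checked were abundant, summing to 48822 FPKM in NP and 37179 FPKM in Control, and all 6 had a ratio above 0. Markers of several other liver cell types were lower in NP, with 5 of 5 Kupffer cell genes (15.9 FPKM summed in NP, 31.2 in Control), 4 of 4 sinusoidal endothelial genes (45.8 in NP, 65.3 in Control) and 4 of 4 stellate cell genes (67.9 in NP, 85.3 in Control) below 0 in log2 ratio. Of the 10533 genes that passed the filter on low levels, 5725 were below 0. That filter was passed by 3 Kupffer, 4 endothelial and 3 stellate genes. Among these the NP interval was wholly below the Control interval for 2, 2 and 3 genes, against 9.58% of all genes that passed. All 6 hepatocyte genes passed, and the NP interval was wholly above for 4 of them, against 7.73% of all genes that passed. Most of their sum was Alb, at 30741 FPKM in NP and 21660 in Control, while Cps1 and Serpina1a had overlapping intervals. Lymphoid markers summed to 3.91 FPKM in NP and 5.41 in Control, with 3 of 4 below 0. Cholangiocyte markers summed to 0.659 FPKM in NP and 0.783 in Control, but 2 of 3 had a ratio above 0, and 0 of the 3 passed the filter on low levels. No marker was at 0 in either library. In bulk liver, fewer cells of a type and less RNA per cell cannot be told apart, and the part of cell composition in the values below was not tested.

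As a class, the synthetases were at nearly the same level in both libraries. Summed over the 19 cytosolic enzymes, the level was 364 FPKM in NP and 373 FPKM in Control, a ratio of 0.977. The 16 mitochondrial enzymes summed to 113 FPKM in NP and 107 FPKM in Control, a ratio of 1.05. A mean of 1 FPKM or more was reached by 34 members, of which 1 was at least 1.5-fold higher in NP and 0 were 1.5-fold lower on the scale of log2(FPKM + 1). Among all 10533 genes that passed the same filter, 3.60% were higher and 5.33% lower by this rule, and 91.1% lay within 1.5-fold. The member past the threshold was Ears2, and Mars2 was the member below the filter. A ratio smaller than 0.32 in either direction on this log2 scale was found for 31 of all 35 members, against 75.8% of all genes kept.

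**Figure D1:**
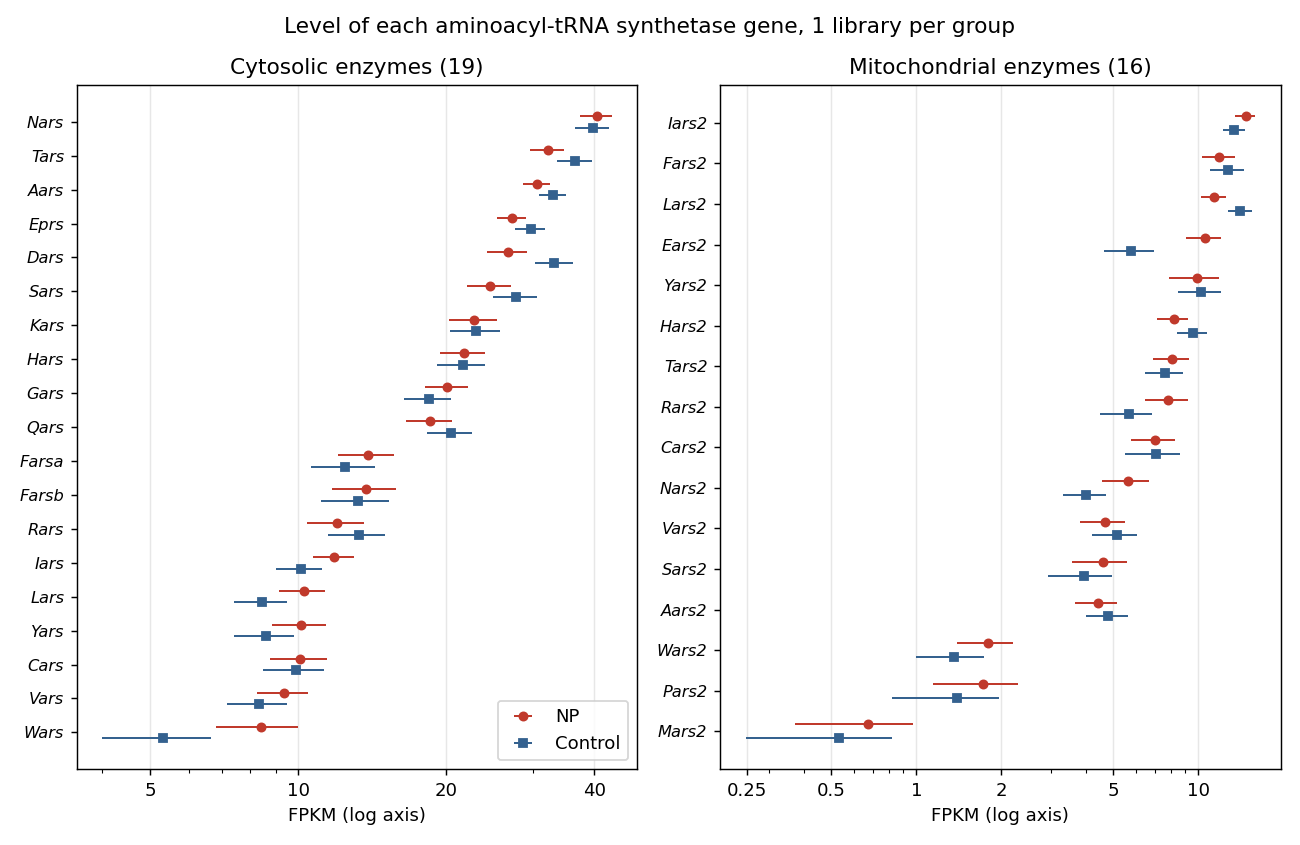
FPKM of each cytosolic (left) and mitochondrial (right) synthetase gene in the NP library (circles) and the Control library (squares), on log axes, with the interval given in the files as a bar. The intervals of a gene overlap for all but Dars and Wars on the left and Ears2 and Lars2 on the right.

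Levels ran over a wider range among genes than between libraries. Nars, the asparaginyl enzyme, was the highest cytosolic member in both libraries, at 40.4 FPKM (37.4 to 43.4) in NP and 39.7 FPKM (36.6 to 42.7) in Control. Wars, the tryptophanyl enzyme, was the lowest cytosolic member in both. The 5 highest cytosolic genes were the same in both libraries, namely Nars, Tars, Aars, Eprs and Dars, which charge tRNA with asparagine, threonine, alanine, glutamate or proline, and aspartate. Of the 18 steps between neighbours in the cytosolic order, 2 in NP and 2 in Control had intervals that did not overlap. These were Nars above Tars and Qars above Farsa in NP, and Gars above Rars and Vars above Wars in Control, so most neighbours in the order were not separated by their intervals. In the mitochondrial set the highest gene was Iars2 in NP, at 14.7 FPKM (13.5 to 15.9), and Lars2 in Control, at 14.1 FPKM (12.7 to 15.5). Mars2, the mitochondrial methionyl enzyme, was lowest, at 0.672 FPKM (0.372 to 0.973) in NP and 0.533 FPKM (0.248 to 0.818) in Control, all of it in a row that spans the whole gene. The other mitochondrial genes below 2 FPKM in both libraries were Wars2, at 1.80 FPKM in NP and 1.36 in Control, and Pars2, the prolyl enzyme, at 1.72 in NP and 1.39 in Control.

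The cytosolic set exceeded the mitochondrial set. The median cytosolic gene was at 18.5 FPKM in both libraries, and the median mitochondrial gene at 7.42 FPKM in NP and 5.73 FPKM in Control. Over the same genes, the mitochondrial enzymes held 23.7% of the summed synthetase FPKM in NP and 22.4% in Control. A median gene of all those kept was at 8.10 FPKM in NP and 8.24 FPKM in Control, so the typical cytosolic synthetase was above the typical liver gene and the typical mitochondrial one below it.

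Ratios between the libraries are given as log2((NP + 1)/(Control + 1)), where 0 means equal and a positive value means higher in NP. The median was 0.03 over the 19 cytosolic members and 0.07 over the 15 mitochondrial members that passed the filter, or 0.10 over all 16. Over all genes kept it was -0.03, and the middle of the distribution between its 5th and 95th percentiles ran from -0.60 to 0.49. The cytosolic median minus the mitochondrial median was -0.05. Ratios were above 0 for 11 of 19 cytosolic and 9 of 16 mitochondrial members, against 45.6% of all genes kept. With 1 library per group, neither the shift of a class nor the difference between the classes could be tested. Single members ran from -0.30 for Dars to 0.57 for Wars among the cytosolic genes and from -0.29 for Lars2 to 0.77 for Ears2 among the mitochondrial ones.

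**Figure D2:**
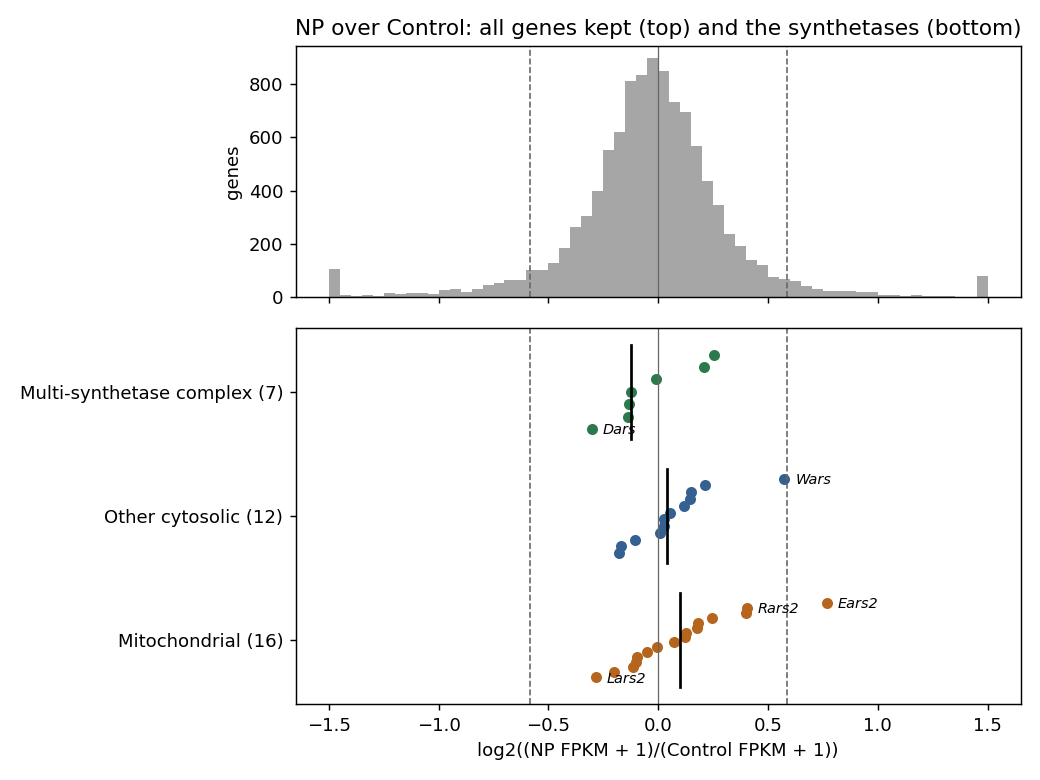
Ratio of NP to Control as log2((NP FPKM + 1)/(Control FPKM + 1)), as a histogram of the 10533 genes kept (top; the outermost bars hold all values beyond them) and for each synthetase gene as a point (bottom), by multi-synthetase complex, other cytosolic and mitochondrial enzymes. Black lines are the medians of each set, at -0.12, 0.04 and 0.10, dashed lines mark 1.5-fold, and Ears2 is the point past them.

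For 2 of the 34 members that passed the filter, Ears2 and Wars, the whole NP interval was above the Control interval, and for 2, Dars and Lars2, it was below. Over all genes kept, 7.73% had the NP interval above and 9.58% below, so the members' counts were near the background. Each of the 4 is described with its set.

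The multi-synthetase complex holds Eprs, Iars, Lars, Qars, Kars, Rars and Dars among the genes studied. Its 7 members summed to 129 FPKM in NP and 138 FPKM in Control, with a median log2 ratio of -0.12 and 2 of 7 above 0. Dars, the aspartyl enzyme, was at 26.7 FPKM (24.2 to 29.2) in NP and 33.2 FPKM (30.2 to 36.1) in Control, 0.805 of the Control level. It lies on chromosome 1 from 130260285 to 130313993 in the mm9 build of the files. Dars was the member of the complex whose intervals were separate.

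Eprs encodes a bifunctional enzyme that charges tRNA with glutamate and with proline, and was at 27.2 FPKM in NP and 29.7 in Control. Qars, the glutaminyl enzyme, was at 18.5 FPKM in NP and 20.4 in Control, and Rars, the arginyl enzyme, at 12.0 in NP and 13.3 in Control. Kars, the lysyl enzyme whose gene serves both compartments through alternative splicing, was at 22.8 FPKM in NP and 23.0 in Control. The 2 members with a ratio above 0 were Iars and Lars, both with overlapping intervals. Iars, the isoleucyl enzyme, was at 11.8 FPKM in NP and 10.1 in Control. Lars, the leucyl enzyme that also acts as a leucine sensor, was at 10.3 in NP and 8.45 in Control. Lars shares 450 bases with Rps19-ps4, a ribosomal protein pseudogene listed at 0 in NP and at 23.2 FPKM in Control, and the part of that overlap was not tested.

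Of the scaffold proteins of the complex, Aimp1 was at 27.3 FPKM in NP and 29.0 in Control and Eef1e1 at 8.24 in NP and 9.81 in Control, with overlapping intervals. Aimp2, the remaining scaffold, was at 8.48 FPKM in NP and listed at 0 in Control. A 0 beside a clear level in the other library can be a failed estimate, and a fold is left out for this reason. Aimp2 shares 1553 bases with Eif2ak1, a kinase gene at 9.60 FPKM in NP and 13.2 in Control. Mars, the cytosolic methionyl enzyme and also part of the complex, was not among the 35 genes. It was at 22.2 FPKM (20.1 to 24.3) in NP and 29.7 FPKM (27.2 to 32.3) in Control, and shares 68 bases with Ddit3, which was at 23.8 FPKM in NP and listed at 0 in Control. With Mars counted, the cytosolic median was 0.02.

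The 12 other cytosolic members summed to 235 FPKM in each library, with a median log2 ratio of 0.04 and 9 of 12 above 0. Wars had the highest ratio among them. It was at 8.41 FPKM (6.82 to 10.01) in NP and 5.32 FPKM (4.002 to 6.64) in Control, a plain ratio of 1.58, which is 0.57 on the log2(FPKM + 1) scale and just short of the 1.5-fold threshold there. With the bounds of its rows added in place of combined in quadrature, the intervals overlapped. Wars lies on chromosome 12 from 110098240 to 110132384 (mm9) and is known for its induction by interferon gamma. Of the 5 interferon genes set beside it, 0 of the 3 that passed the filter were past 1.5-fold, where 91.1% of all genes kept lay within it. Irf1 was at 14.0 FPKM in NP and 11.7 in Control.

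The remaining 11 had overlapping intervals. Tars, the threonyl enzyme, was at 32.2 FPKM (29.6 to 34.7) in NP and 36.6 FPKM (33.7 to 39.5) in Control, with the lowest ratio of this set at -0.18. Sars, the seryl enzyme, was at 24.6 FPKM in NP and 27.8 in Control, and Aars, the alanyl enzyme, at 30.6 in NP and 32.9 in Control. Above 0 lay Yars, the tyrosyl enzyme, at 10.1 FPKM in NP and 8.61 in Control, Vars, the valyl enzyme, at 9.35 in NP and 8.33 in Control, and Gars, the glycyl enzyme of both compartments, at 20.1 in NP and 18.5 in Control. Farsa and Farsb encode the α and β subunits of the phenylalanyl enzyme. They kept close levels to each other, Farsa at 13.9 FPKM in NP and 12.5 in Control and Farsb at 13.8 in NP and 13.2 in Control. Hars, the histidyl enzyme, was at 21.7 FPKM in NP and 21.6 in Control, and Cars, the cysteinyl enzyme, at 10.1 in NP and 9.89 in Control.

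Cytosolic synthetases known as ATF4 targets in mouse cells were considered apart, since Atf4 itself was at 76.4 FPKM (70.6 to 82.2) in NP and 58.4 FPKM (53.2 to 63.5) in Control. The 11 genes of this list were Aars, Cars, Eprs, Gars, Iars, Lars, Nars, Sars, Tars, Wars and Yars. They summed to 226 FPKM in NP and 227 FPKM in Control, a ratio of 0.992, and 0 of 11 were past 1.5-fold on the log2(FPKM + 1) scale. Over all genes kept, 3.60% were higher and 5.33% lower by this rule, so a count of 0 among 11 was near the background. Their median was 0.03, against -0.00 for the 8 cytosolic members outside the list. Wars was the gene of the list with separate intervals. The other stress and amino acid genes differed among themselves. Atf5, a related transcription factor, was at 370 FPKM in NP and 307 in Control, with separate intervals. The 6 genes of the list below the filter went both ways and had overlapping intervals. Among them Asns, the asparagine synthetase and a classical ATF4 target, was at 0.499 FPKM in NP and 1.01 in Control, while Psat1, of serine synthesis, was at 0.640 in NP and 0.206 in Control, Chac1, which degrades glutathione, at 1.12 in NP and 0.632 in Control, and Mthfd2, of mitochondrial folate metabolism, at 0.510 in NP and 0.389 in Control. Shmt2, of mitochondrial one-carbon metabolism, was at 58.0 FPKM in NP and 56.7 in Control, Slc3a2, a subunit of amino acid transporters, at 18.1 in NP and 17.2 in Control, and Trib3 at 6.16 in NP and 7.51 in Control. Of the 12 genes of this stress list 6 passed the filter, and 1 of the 6 was past 1.5-fold, against 3.60% of all genes kept that were higher by this rule. It was Ddit3, the gene listed at 0 in Control beside Mars, and such a 0 can be a failed estimate. The NP interval was wholly above the Control interval for 3 of the 6, namely Atf4, Atf5 and Ddit3, and wholly below it for 0. Over all genes kept, 7.73% were above and 9.58% below.

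Promoters of these genes are shown because ATF4 acts through the C/EBP-ATF response element, whose core was searched as TGATGNAA on both strands. Sequences are from RefSeq in build GRCm38.p6, and 26 of the 35 members had an entry, 27 promoters in all. The core was found in 5 of the 26 genes, against 3.97% of 32851 promoters of the same 300 bases in the table. All 5 were on the ATF4 list, of which 7 had a promoter entry, and 0 of 5 other cytosolic and 0 of 14 mitochondrial genes had a match. ATF4 acts through this element, and list and motif were chosen with earlier results of these data known, so these counts are no test. The sequences below run 5′ to 3′ along the gene from 250 bases before its start to 30 bases after it. The core is in capitals, written as its reverse complement where it lies on the opposite strand. Coordinates of these windows are chr8:111033592-111033871 on the plus strand for Aars, chr6:55037751-55038030 on the plus strand for Gars, chr13:49681880-49682159 on the plus strand for Iars, chr15:11399629-11399908 on the minus strand for Tars and chr4:129189653-129189932 on the plus strand for Yars.
Aars: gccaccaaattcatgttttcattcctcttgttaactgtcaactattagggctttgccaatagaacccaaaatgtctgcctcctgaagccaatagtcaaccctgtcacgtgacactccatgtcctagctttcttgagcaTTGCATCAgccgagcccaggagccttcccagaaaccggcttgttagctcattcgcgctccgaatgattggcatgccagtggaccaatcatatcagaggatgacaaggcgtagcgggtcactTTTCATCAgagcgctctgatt
Gars: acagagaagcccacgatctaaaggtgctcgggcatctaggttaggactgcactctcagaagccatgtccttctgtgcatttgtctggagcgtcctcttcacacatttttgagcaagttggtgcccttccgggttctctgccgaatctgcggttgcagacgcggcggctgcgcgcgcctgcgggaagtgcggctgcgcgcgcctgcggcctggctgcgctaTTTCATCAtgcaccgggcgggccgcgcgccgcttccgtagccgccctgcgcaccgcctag
Iars: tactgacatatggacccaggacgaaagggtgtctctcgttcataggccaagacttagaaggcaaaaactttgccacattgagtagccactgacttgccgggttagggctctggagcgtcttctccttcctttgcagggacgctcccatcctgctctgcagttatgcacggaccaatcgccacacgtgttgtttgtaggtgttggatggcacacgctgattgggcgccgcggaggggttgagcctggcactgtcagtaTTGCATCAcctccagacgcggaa
Tars: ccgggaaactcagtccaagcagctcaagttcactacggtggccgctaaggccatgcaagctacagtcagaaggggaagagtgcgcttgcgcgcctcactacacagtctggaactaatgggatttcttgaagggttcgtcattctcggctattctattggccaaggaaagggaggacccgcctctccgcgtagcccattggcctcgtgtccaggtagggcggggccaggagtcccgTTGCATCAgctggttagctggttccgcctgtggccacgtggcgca
Yars: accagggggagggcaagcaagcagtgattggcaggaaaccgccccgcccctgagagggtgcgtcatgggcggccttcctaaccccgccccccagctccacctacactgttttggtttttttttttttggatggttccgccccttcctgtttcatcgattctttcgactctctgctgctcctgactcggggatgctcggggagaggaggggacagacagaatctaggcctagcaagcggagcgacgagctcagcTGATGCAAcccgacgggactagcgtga

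Aars had 2 cores, from 112 to 105 bases before the start and from 10 to 17 bases after it. The others had 1 each, within 30 bases of the start: in Gars from 30 to 23 and in Tars from 15 to 8 bases before it, and in Iars from 8 to 15 and in Yars from 4 to 11 bases after it. These 5 genes had plain ratios of NP to Control of 0.929 for Aars, 1.09 for Gars, 1.17 for Iars, 0.879 for Tars and 1.18 for Yars. The intervals of all 5 overlapped, and the genes lay on both sides of 1. A match is a description of letters and not evidence of binding.

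The mitochondrial set held the member with the highest ratio of all. Ears2, the mitochondrial glutamyl enzyme, was at 10.6 FPKM (9.04 to 12.1) in NP and 5.78 FPKM (4.62 to 6.95) in Control, a plain ratio of 1.82, with all of its FPKM in 1 transcript row of 2046 nt. Coverage of Ears2 was 31.1 reads per base in NP and 13.4 in Control. The gene lies on chromosome 7 from 129180727 to 129210777 (mm9) and shares 89 bases with Ubfd1. Ubfd1 was at 12.4 FPKM in NP and 17.1 in Control, where 2 transcripts of different length made up its level. In FPKM times length in kilobases, which follows the number of fragments, Ubfd1 was at 60.3 in NP and 52.1 in Control and Ears2 at 21.6 in NP and 11.8 in Control. The sum of both genes was 1.28 times as high in NP, and both genes were higher on this scale. The part of the overlap in the Ears2 value was not tested. The Ears2 promoter (RefSeq, GRCm38.p6, chr7:122067057-122067336 on the minus strand) is printed as that of the member with the highest ratio, and holds no TGATGNAA core.
Ears2: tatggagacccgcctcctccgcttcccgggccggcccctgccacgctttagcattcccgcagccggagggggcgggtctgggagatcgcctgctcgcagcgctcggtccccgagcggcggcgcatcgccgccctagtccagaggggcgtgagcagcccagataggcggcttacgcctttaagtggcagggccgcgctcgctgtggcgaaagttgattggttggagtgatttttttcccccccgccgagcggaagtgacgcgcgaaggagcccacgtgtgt

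In mitochondria Ears2 also loads glutamate onto the glutamine tRNA, and the amidotransferase GatCAB then converts it to glutamine. The subunit genes of that enzyme gave no common picture. Qrsl1, the A subunit, was at 2.41 FPKM in NP and 1.92 in Control and Gatc, the C subunit, at 9.96 in NP and 10.7 in Control, both with overlapping intervals. The B subunit gene, named Pet112l in the files and Gatb in current annotation, was at 16.9 FPKM in NP and listed at 0 in Control, within an overlap of 81504 bases with Arfip1, at 9.51 FPKM in NP and 15.2 in Control. Of all genes kept, 0.418% were at 0 in Control.

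Lars2, the mitochondrial leucyl enzyme, was lower in NP, at 11.4 FPKM (10.2 to 12.5) against 14.1 FPKM (12.7 to 15.5) in Control, 0.808 of the Control level. It lies on chromosome 9 from 123276058 to 123371782 (mm9). With NP scaled up to bring the median ratio of all genes to 1, or to match the upper quartiles, the intervals of Lars2 overlapped, while those of Dars stayed separate. With NP scaled to the sum without the top 100 genes, the intervals of both genes stayed separate. Rars2, the arginyl enzyme, was at 7.82 FPKM (6.47 to 9.16) in NP and 5.67 FPKM (4.47 to 6.87) in Control, and Nars2, the asparaginyl enzyme, at 5.61 FPKM (4.55 to 6.68) in NP and 4.01 FPKM (3.31 to 4.72) in Control. Their plain ratios of 1.38 and 1.40 were the next highest after Ears2 and Wars, and their intervals overlapped.

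The other mitochondrial members all had overlapping intervals. Wars2, Mars2 and Pars2, the 3 lowest genes, had plain ratios of 1.32, 1.26 and 1.23 at levels where the interval is wide. Sars2, the seryl enzyme, was at 4.58 FPKM in NP and 3.93 in Control, Iars2, the isoleucyl enzyme, at 14.7 in NP and 13.4 in Control, and Tars2, the threonyl enzyme, at 8.08 in NP and 7.63 in Control. Ratios a little below 0 were found for 5 genes. Cars2, the cysteinyl enzyme, was at 7.02 FPKM in NP and 7.06 in Control, and Yars2, the tyrosyl enzyme, at 9.87 in NP and 10.3 in Control. Fars2, the phenylalanyl enzyme, was at 11.9 FPKM in NP and 12.8 in Control, Vars2, the valyl enzyme, at 4.67 in NP and 5.13 in Control, and Aars2, the alanyl enzyme, at 4.40 in NP and 4.80 in Control. Hars2, the histidyl enzyme, was at 8.19 FPKM in NP and 9.57 in Control. It shares 198 bases with Hars, its cytosolic counterpart and immediate neighbour on chromosome 18.

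For 13 amino acids a cytosolic and a mitochondrial member could be set side by side within each library, with Farsa standing for the cytosolic phenylalanyl enzyme. The cytosolic gene was the higher in both libraries for 9 of the 13 pairs, and the median ratio of cytosolic to mitochondrial FPKM was 2.003 in NP and 2.26 in Control. Aars exceeded Aars2 6.95-fold in NP and 6.86-fold in Control, while Iars was at 0.805 of Iars2 in NP and 0.755 in Control. The shift of this ratio between libraries was larger than the combined intervals of its 4 values for 3 pairs. No share of such shifts over other gene pairs was computed, so this count has no background beside it. Lars was at 0.902 of Lars2 in NP and 0.6003 in Control, a shift of 0.59 in log2. Rars exceeded Rars2 1.53-fold in NP and 2.34-fold in Control, a shift of -0.61, and Nars exceeded Nars2 7.20-fold in NP and 9.89-fold in Control, a shift of -0.46. The shifts went both ways, with 9 pairs above 0, 4 below and a median of 0.09. With the highest row of each gene alone, the shift of the asparaginyl pair turned to 0.16, since the 1777-nt row of Nars2 is listed at 0 in Control, and that of the cysteinyl pair turned to -0.51 from a main value of 0.04. The leucyl and arginyl shifts were 0.58 and -0.62 in that setting. Larger shifts there were those of the tyrosyl pair, 0.95 from a main value of 0.29, and of the valyl pair, 0.70 from 0.30.

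**Figure D3:**
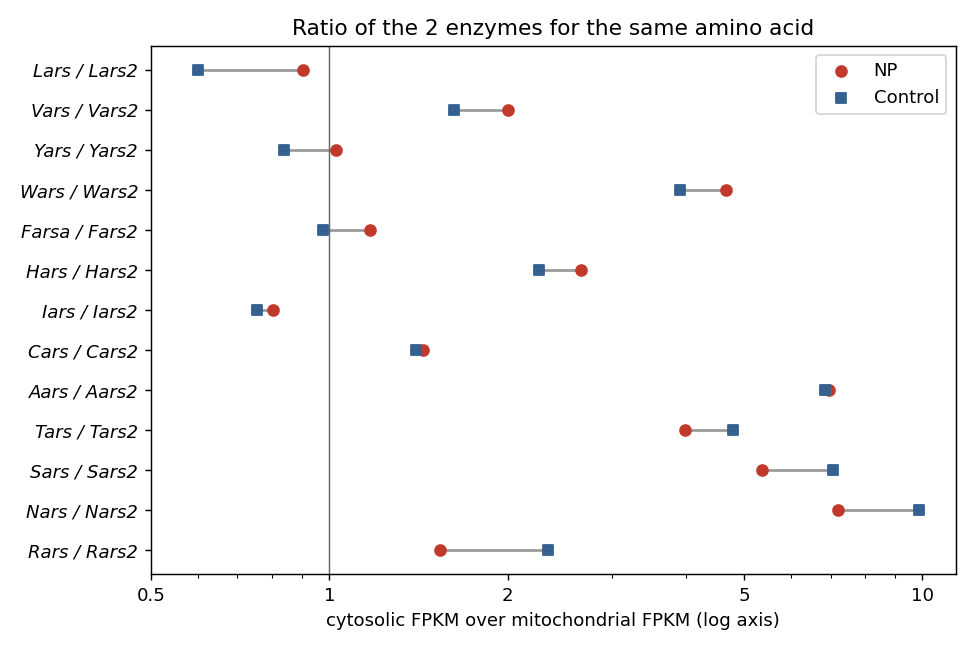
Ratio of cytosolic to mitochondrial FPKM for the 13 amino acids with a member in both sets, in the NP library (circles) and the Control library (squares), on a log axis, ordered by the shift between them. Points right of 1 have the cytosolic gene higher, and the lines run rightward to NP for 9 pairs and leftward for 4.

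Synthetases fall into 2 structural classes that differ in the fold of their catalytic domain. In the cytosolic set, 6 of 8 class I genes had a ratio above 0, with a median of 0.18, and 5 of 10 class II genes, with a median of -0.00. Eprs holds a domain of each class and was left out of this split. In the mitochondrial set the medians were 0.06 over the 8 class I genes that passed the filter and 0.07 over the 7 class II genes, and with Mars2 counted the class I median was 0.12, so their order depended on that low gene. Class I genes were the less abundant in the cytosol, with a median of 10.2 FPKM in NP and 9.25 in Control against 23.7 in NP and 25.4 in Control for class II.

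Because the tables list transcripts, the isoforms behind each sum could be compared. More than 1 transcript row was above 0 for 10 of the 35 members, with 21 rows. For Farsb, Kars, Qars and Vars2 the rows kept similar shares, such as 70.9% in NP and 70.2% in Control for the 2132-nt row of Farsb. Vars and Sars showed rows moving apart under sums that stayed close. The 4137-nt row of Vars was at 7.15 FPKM (6.22 to 8.08) in NP and 4.76 FPKM (3.93 to 5.59) in Control, and the 3731-nt row at 2.204 FPKM (1.60 to 2.81) in NP and 3.57 FPKM (2.79 to 4.36) in Control. The 3570-nt row of Sars was at 4.23 FPKM (3.41 to 5.05) in NP and 2.64 FPKM (1.94 to 3.34) in Control, and the 1866-nt row at 19.8 FPKM (17.4 to 22.2) in NP and 24.6 FPKM (21.8 to 27.4) in Control. Intervals were separate for the longer row of each gene and overlapped for the shorter one.

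In Wars the difference lay mainly in the 1824-nt row, at 4.95 FPKM (3.60 to 6.30) in NP and 2.57 FPKM (1.51 to 3.63) in Control. The 2831-nt row was at 3.36 FPKM (2.51 to 4.21) in NP and 2.70 FPKM (1.91 to 3.49) in Control, and both pairs of row intervals overlapped. In Yars2 the sum was close while its rows were not. The 1574-nt row was at 6.22 FPKM (4.75 to 7.70) in NP and 10.3 FPKM (8.45 to 12.1) in Control, where it held the whole level. A 1528-nt row at 1.86 FPKM and a 1412-nt row at 1.79 FPKM in NP were both listed at 0 in Control. The 1777-nt row of Nars2, at 1.97 FPKM in NP, was also listed at 0 in Control, and the 3781-nt row was at 3.64 FPKM in NP and 3.99 in Control, so the higher sum of Nars2 in NP rests on that short row. Cars2 had the opposite pattern, with a 1375-nt row listed at 0 in NP and at 2.23 FPKM in Control, and an 1846-nt row at 6.60 FPKM in NP and 4.55 in Control. Members had 42 transcript rows that averaged 1 FPKM or more. The NP interval was above the Control interval for 3 of them and below it for 4, where all 12667 such rows had 13.1% above and 14.6% below. A row at 0 in 1 library was found for 1 of the 42, that of Cars2, against 9.88% of the 12667 rows. The 3 rows of Yars2 and Nars2 listed at 0 in Control averaged just below 1 FPKM. They are therefore not among the 42, and this count does not show that such rows were rarer among the members.

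**Figure D4:**
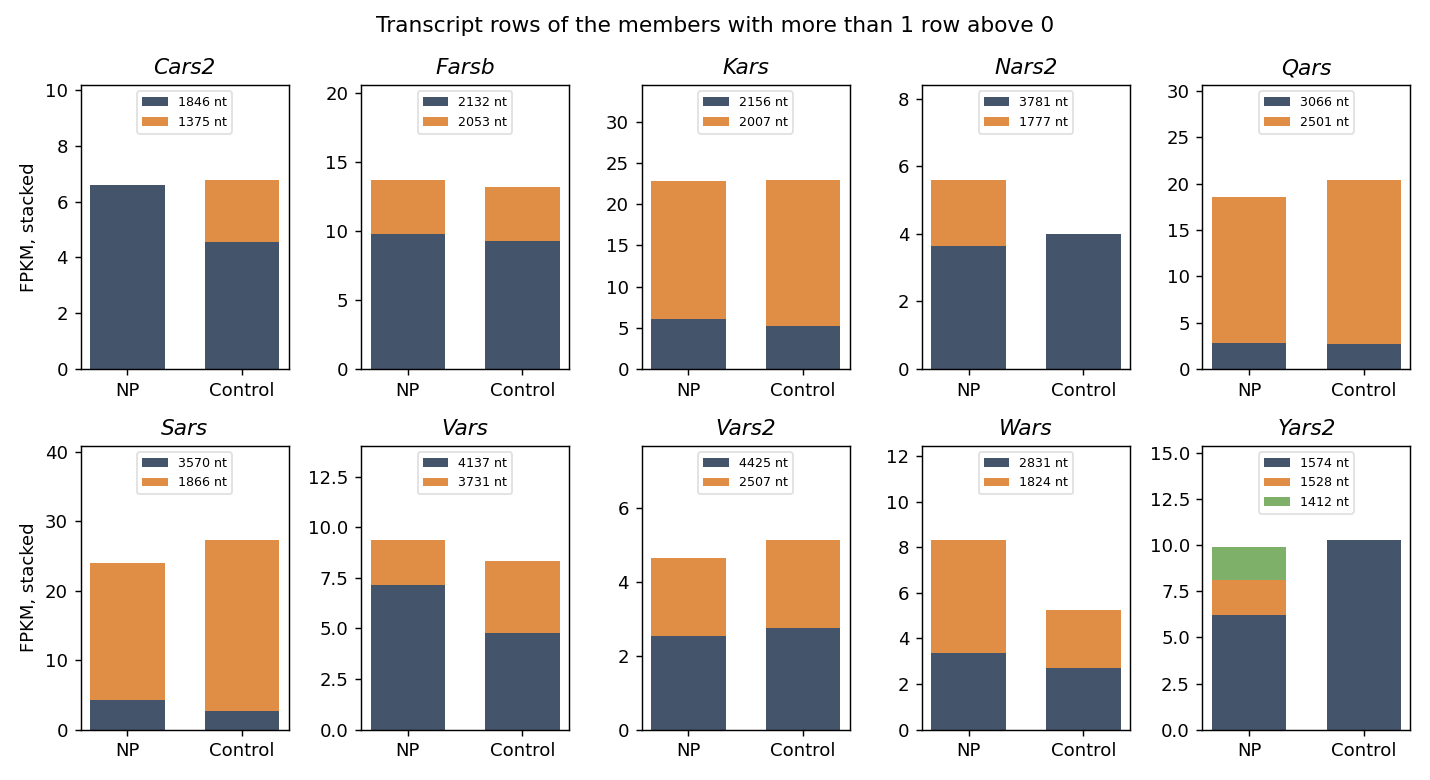
FPKM of each transcript row, stacked, in NP and Control for the 10 members with more than 1 row above 0, with the length of each row in the legend and a scale of its own for each gene. Sums are close in both libraries for most genes, while the rows of Vars, Yars2, Cars2 and Nars2 hold different shares.

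Of 16 other listed genes of tRNA charging found in the files, 15 passed the filter and 13 of these were within 1.5-fold, where 91.1% of all genes kept were. The 2 past 1.5-fold higher, Aimp2 and Pet112l, were the ones listed at 0 in Control, and 0 were past 1.5-fold lower. Mars, described with the complex, was the listed gene whose NP interval was wholly below that of Control. Xpot, the export receptor of tRNA, was at 12.3 FPKM in NP and 13.1 in Control, and Mtfmt, which formylates the mitochondrial initiator tRNA, at 2.83 in NP and 3.42 in Control. Tarsl2, a second threonyl enzyme of the cytosol, was at 5.82 FPKM in NP and 6.28 in Control, and Sepsecs, which makes selenocysteine on its tRNA, at 11.5 in NP and 12.2 in Control. Aarsd1, an editing protein for mischarged alanine tRNA, was at 10.99 FPKM in NP and 14.5 in Control. All of these had overlapping intervals, and Pstk was listed at 0 in both libraries. The median log2 ratio of the 16 genes was -0.08.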

How the data were processed

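Liver RNA was sequenced in 1 NP and 1 Control library, prepared from total RNA with an Illumina TruSeq kit per the labels' protocols. Per the submitters' processing notes, TopHat2 2.1.0, Cufflinks 2.2.1.0 and build mm9 were named, without roles or settings. The deposited values are FPKM with lower and upper bounds and, per the file headers, read coverage, a signal not scaled to library size. The total of fragments per library is unknown. Rows sharing a gene identifier were added up, and the distances to the bounds combined in quadrature, which leaves out covariance and treats a row at 0 as exact. Start positions were shifted by 1 base to genome browser style. The filter asked for a mean of 1 FPKM or more, OK status in all rows, a length of at least 300 nt and no small RNA name. Ratios used a pseudocount of 1, which shrinks those of low genes. The fold rule was checked on simulated data. All 35 members could be named, and the members, lists and motif were chosen with earlier results of these data known. Some listed genes outside the 35 are counted with their list and not reported singly here. Python 3.11.15, pandas 2.3.3, numpy 2.4.6 and matplotlib 3.10.9 were used.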

Additional observations from a re-analysis of the deposited data

How the results depend on the processing

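Median ratios, their difference and summed ratios moved little under every alternative run. The cytosolic median ran from 0.00 to 0.05, the mitochondrial one from -0.01 to 0.10, and their difference from -0.07 to 0.03, so its sign was not fixed. Wars entered as 1 cytosolic gene at least 1.5-fold higher with a pseudocount of 0.1, with plain FPKM, with NP scaled to the median ratio or the upper quartile, and with the highest row alone, and a size rule of 0.32 in log2 also gave 1. That rule gave 3 higher mitochondrial genes, a 2-fold rule 0, and leaving out genes that overlap another, which drops Ears2, also 0. The highest row alone gave 1 lower mitochondrial gene. Genes with the NP interval above Control fell to 1 without overlapping genes and to 1 with bounds added. Those below fell to 1 with NP scaled to the median ratio or the upper quartile, which leaves Dars and ends the call of Lars2. With NP scaled to the sum without the top 100 genes they stayed at 2, Lars2 among them, and the highest row alone gave 3. The highest row alone moved the ratios of Cars2 (1.45), Nars2 (0.911), Vars (1.502) and Yars2 (0.607). Leaving out overlapping genes, adding the bounds, adding Mars, leaving out Gars and Kars, and the pair shifts with the highest row alone were chosen after seeing the data. Plain ratios ran from 1.79 to 1.86 for Ears2 and from 1.55 to 1.93 for Wars. Ears2 has all of its FPKM in 1 row, so the choice of rows could not move its ratio and its range comes from the scalings of NP alone. No paired analysis was possible because each group has 1 library. The wide intervals of Mars2, Pars2 and Wars2 limit what their ratios can show.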
